A study of Homo sapiens with 6 samples.

Results

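The genes described here are 53 genes of the G2 phase and of mitosis, chosen by name: a gene belonged if its symbol was on a list of 53 and it had a row in the deposited table of log2 CPM, that is, read counts scaled to library size on a log2 scale. The table holds 17901 genes, and 52 of the listed genes are among them. NUSAP1, a protein of the spindle microtubules, is the exception and is described at the end of the section on the spindle. RNA was measured in 22Rv1, a human prostate cancer cell line. Cells received a non-targeting pool of small interfering RNAs (siCtrl, 3 libraries) or a pool against MED12 (siMED12, 3 libraries), at 25 pmol in both groups, and were harvested on day 3. MED12 belongs to the kinase module of Mediator, the complex between transcription factors and RNA polymerase II. The comparison answers how far the RNA of the mitotic program differs after MED12 knockdown, a treatment under which the study measured cell proliferation. All values come from a single cell line and a single pool of small interfering RNAs for the knockdown.

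A dividing cell builds up mitotic RNA late in the cycle. CDK1 and its cyclins drive entry into mitosis, the spindle and the kinetochores align the chromosomes, and the anaphase-promoting complex, a ubiquitin ligase switched on by CDC20, starts their separation. Aurora kinases correct attachment and the cytokinesis proteins divide the cell. Most of these genes are kept off by the DREAM complex in resting cells and are switched on by MYBL2 with the MuvB proteins and by FOXM1, in part through a short promoter element called the cell cycle genes homology region (CHR). In bulk RNA, fewer cells in G2 and mitosis and less RNA in each such cell cannot be told apart.

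The libraries held 16136699 to 17012788 counts assigned to genes. MED12 was at 67.8, 77.7 and 72.6 CPM in the siCtrl libraries (replicates 1, 2 and 3) and at 23.9, 15.0 and 30.1 CPM in the siMED12 libraries, so that the groups did not overlap. Its log2 fold change was -1.66 (SE 0.226, adjusted p = 0.0314 by edgeR's quasi-likelihood test), and -1.68 (adjusted p = 1.52e-16) when the model also held a block for the replicate number. Without the block, the adjusted p was above 0.05 when any of siCtrl replicates 1 and 2 and siMED12 replicates 1 and 2 was left out (0.0818 to 0.186). Each of these fits called 0 of all genes tested in either direction, so that they say little about MED12. All 11 markers of luminal prostate cells were tested and had means of 26.0 to 747 CPM. They summed to 3846, 3639 and 3741 CPM in siCtrl and to 3160, 2940 and 3102 CPM in siMED12. With the block 7 of the 11 were lower and 2 higher, beside 16.2% and 17.1% of all genes tested. Without it 1 was lower, beside 0.413% of all genes. Whether this bears on the mitotic genes was not tested. Of 7 markers of stromal, endothelial and immune cells, 6 had at most 14 counts in every library, and the summed level of the 7 ranged from 16.5 to 27.5 CPM in siCtrl and from 17.1 to 27.1 CPM in siMED12. The share of counts from mitochondrially encoded genes followed the replicate number in both groups, from 4.43% and 4.79% in replicate 1 to 10.0% and 10.1% in replicate 3.

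HMGB2 was lower in siMED12 at every replicate number, and no other of the 52 genes passed the test of the 2 groups alone. HMGB2 encodes a DNA-bending chromatin protein that is abundant in dividing cells. In that fit, which takes the treatment as its only term, 1 of 52 genes was lower with an adjusted p below 0.05, where 0.413% of all genes tested were, and 0 were higher, where 0.151% of all genes were. An unadjusted p below 0.05 was found for 7 of the 52 in the lower direction (7.93% of all genes) and for 0 in the higher direction (7.65% of all genes). DESeq2 also called 1 gene lower and 0 higher, where it called 2.75% and 1.85% of all genes, and so did limma, where it called 0.436% and 0.151%. The replicate numbers were taken to pair the libraries from correlations in these same data, which the labels do not state. A block for the number was therefore added to the model. This blocked fit called 13 of the 52 genes lower, or 25.0%, and 1 higher, or 1.92%. Over all genes tested, the shares with the block were 16.2% lower and 17.1% higher. With the block and library size as the only scaling, 11 genes were lower and 2 higher, beside 13.5% and 21.3% of all genes.

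The 13 genes that fell with the block were HMGB2, KIF11, G2E3, CKS1B, CKS2, CDC20, AURKB, BIRC5, RANGAP1, CKAP2, ANLN, JPT1 and TUBB4B, and the gene that rose was ANP32E. Their changes were small, with log2 fold changes from -0.50 for HMGB2 to -0.11 for TUBB4B, and 0.20 for ANP32E. The other 38 genes were not called in either fit. For 35 of those 38, the 95% interval of the blocked log2 fold change lay between -0.26 and 0.26, that is, within a 1.2-fold change in either direction, a limit chosen after the values were seen. CENPA, CDC25C and KIF20B had wider intervals. Without the block, the interval lay within that limit for 14 of the 52 genes.

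**Figure D1:**
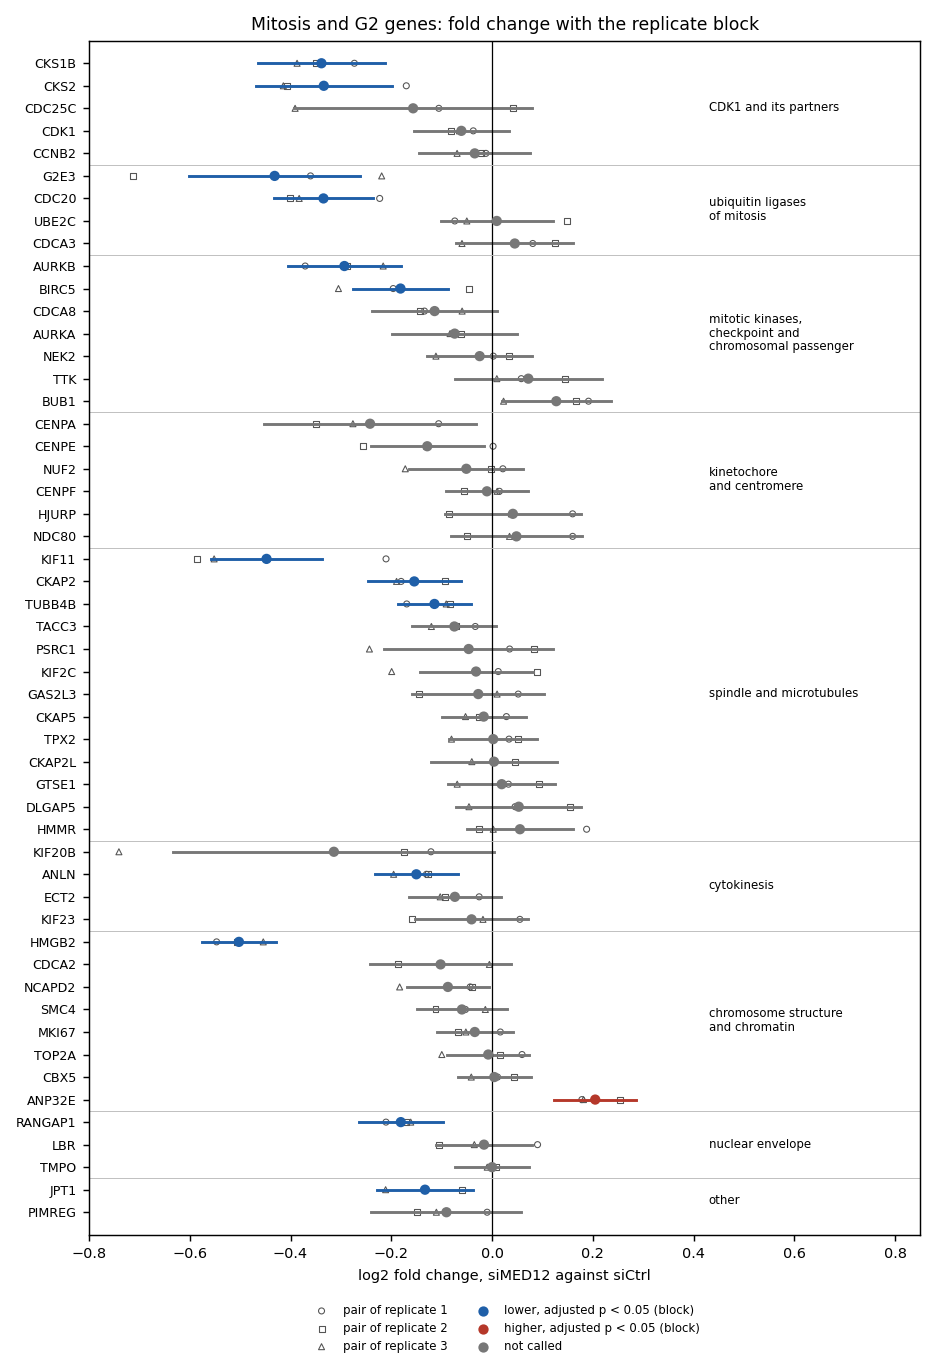
Log2 fold change of siMED12 against siCtrl (x axis) for each of the 52 tested genes (y axis), in 9 groups by role. Filled points and bars are the blocked estimate and its 95% interval, colored by the blocked call (13 lower in blue, 1 higher in red, 38 not called in gray), and open symbols are the difference in log2 CPM within each replicate number. Most bars cross or lie close to 0, and HMGB2, KIF11 and G2E3 lie farthest to the left among the genes called.

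As a group, the 52 genes lay slightly to the lower side. Their median log2 fold change was -0.058, against 0.018 over all genes tested, and 38 of the 52 were below 0, or 73.1%, where 47.6% of all genes were. Within the replicate numbers 1, 2 and 3 the medians were -0.011, -0.065 and -0.087, against 0.017, -0.00035 and 0.033 over all genes. With library size as the only scaling, the median was -0.017 against 0.059 over all genes (-0.014 against 0.060 with the block). Without siMED12 replicate 3 alone it was 0.012 in the unblocked fit, and without both libraries of replicate 3 it was -0.043 in the blocked fit. The levels of the 52 genes summed to 9237, 9582 and 8807 CPM in siCtrl and to 8783, 9055 and 8095 CPM in siMED12. The difference of siMED12 from siCtrl was -4.92% in replicate 1, -5.50% in replicate 2 and -8.08% in replicate 3, and -2.40%, -3.35% and -6.25% once HMGB2 was left out. The groups of the summed level overlapped, since siCtrl replicate 3 lay between siMED12 replicates 1 and 2.

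All 3 siMED12 libraries lay below all 3 siCtrl libraries for 9 of the 52 genes (10.9% of all genes tested), namely HMGB2, KIF11, CKS1B, CKS2, CDC20, AURKB, BIRC5, RANGAP1 and CKAP2. They lay above them for 2 genes, ANP32E and BUB1 (11.2% of all genes). The differences within the 3 replicate numbers had the same sign for 28 genes (57.6% of all genes). For 42 genes the log2 range among the siCtrl libraries was larger than the change itself (76.0% of all genes). The median siCtrl range was 0.21 on the log2 scale, and the median absolute log2 fold change was 0.073.

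**Figure D2:**
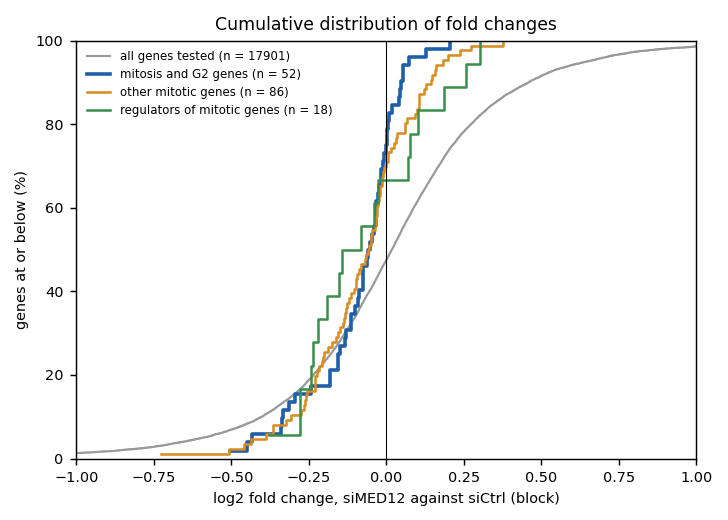
Cumulative share of genes (y axis, percent) at or below a blocked log2 fold change of siMED12 against siCtrl (x axis, shown from -1 to 1), for all 17901 genes tested, the 52 mitosis and G2 genes, 86 other mitotic genes and 18 regulators of mitotic transcription. The curve of the 52 genes is steep around its median of -0.056, and 39 of the 52 genes lie below 0.

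The start-site windows of RefSeq (assembly GRCh38.p14, which shares its chromosome coordinates with the authors' GRCh38 patch) hold 250 bases before and 50 bases after a transcription start. They cover 44 of the 53 genes with 57 windows, and none is given for ANP32E, AURKA, BIRC5, CDCA2, HMGB2, PIMREG, TPX2, TTK or UBE2C. The CHR core TTTGAA was found on either strand in 35 of the 57 windows (61.4%), against 15.2% of all 35116 windows. CCAAT, the letters bound by NF-Y, was found on either strand in 38 (66.7%), against 34.6%, and both motifs in 28 (49.1%), against 5.90%. The E-box CACGTG, the letters bound by MYC with MAX, was found in 4 (7.02%), against 7.26%. At least 1 window held the CHR core in 9 of 11 genes that were lower with the block (81.8%) and in 22 of 32 that were not called (68.8%). For CCAAT the counts were 7 of 11 (63.6%) and 24 of 32 (75.0%). Both motifs shared a window in 6 of 11 (54.5%) and 19 of 32 (59.4%). The E-box was found in 1 of 11 (9.09%) and 3 of 32 (9.38%). Shares per gene were not computed for all genes. The 200 bases before the start, 5′ to 3′ on the strand of the gene, are printed for 4 genes that fell with the block (KIF11, CKS1B, CKS2, CDC20) and for 2 that did not pass (CCNB2, TOP2A). Capitals mark TTTGAA and CCAAT or their reverse complements TTCAAA and ATTGG. The windows are chr10:92592930-92593129 (plus strand) for KIF11, chr1:154974481-154974680 (plus) for CKS1B, chr9:89310995-89311194 (plus) for CKS2, chr1:43358781-43358980 (plus) for CDC20, chr15:59104946-59105145 (plus) for CCNB2 and chr17:40417897-40418096 (minus) for TOP2A.
KIF11: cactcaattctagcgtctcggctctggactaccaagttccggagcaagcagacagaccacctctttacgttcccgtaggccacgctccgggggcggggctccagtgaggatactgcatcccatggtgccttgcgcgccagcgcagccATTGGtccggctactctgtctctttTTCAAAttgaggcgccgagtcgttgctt
CKS1B: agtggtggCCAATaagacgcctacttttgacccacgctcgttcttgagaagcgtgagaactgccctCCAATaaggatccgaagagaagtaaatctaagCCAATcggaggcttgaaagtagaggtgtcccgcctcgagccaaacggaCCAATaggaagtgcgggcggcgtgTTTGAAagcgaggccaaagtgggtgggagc
CKS2: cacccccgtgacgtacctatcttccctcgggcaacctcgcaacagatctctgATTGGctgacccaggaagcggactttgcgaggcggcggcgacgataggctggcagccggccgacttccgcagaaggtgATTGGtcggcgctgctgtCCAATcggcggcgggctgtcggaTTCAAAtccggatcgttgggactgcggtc
CDC20: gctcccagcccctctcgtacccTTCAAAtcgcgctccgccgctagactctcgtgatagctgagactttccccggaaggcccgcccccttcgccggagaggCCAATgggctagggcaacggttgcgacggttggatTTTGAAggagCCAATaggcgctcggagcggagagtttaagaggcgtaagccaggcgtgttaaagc
CCNB2: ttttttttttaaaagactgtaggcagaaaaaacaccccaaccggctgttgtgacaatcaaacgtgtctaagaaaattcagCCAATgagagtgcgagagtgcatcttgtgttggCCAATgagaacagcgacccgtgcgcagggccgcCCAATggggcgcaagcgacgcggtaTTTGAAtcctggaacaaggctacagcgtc
TOP2A: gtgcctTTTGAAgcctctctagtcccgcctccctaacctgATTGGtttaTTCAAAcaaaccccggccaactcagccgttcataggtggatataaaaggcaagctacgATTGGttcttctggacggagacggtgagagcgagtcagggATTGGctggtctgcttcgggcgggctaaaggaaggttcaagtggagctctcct
In KIF11, CKS1B, CKS2 and CCNB2 the first base of the CHR core lay 28 to 30 bases before the start and the nearest CCAAT 52 to 54 bases before it. The printed genes were picked by hand, and positions in the other genes were not compared. Whether spacing goes with the change in level was not tested. CDC20 held the core at 65 and 178 bases and TOP2A at 151 and 194 bases before the start. Their nearest CCAAT lay at 55 bases (CDC20) and 53 bases (TOP2A) before it, close to that of the other printed genes. A match gives letters only and is not evidence of a bound factor.

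Among CDK1 and its partners, the small CDK-binding proteins CKS1B and CKS2 fell with the block, and the kinase itself and its cyclin were not called. CKS1B was at 53.0, 61.8 and 69.1 CPM in siCtrl and at 43.8, 48.5 and 52.8 CPM in siMED12. CKS2 was at 46.4, 56.7 and 61.7 CPM in siCtrl and at 41.2, 42.7 and 46.3 CPM in siMED12. In both genes every siMED12 library lay below every siCtrl library, although by little between siMED12 replicate 3 and siCtrl replicate 1, and replicate 3 was the highest library of its group. The log2 fold change of CKS1B was -0.34 in both fits (adjusted p = 0.253 without and 3.5e-05 with the block), and that of CKS2 was -0.34 without the block (adjusted p = 0.253) and -0.33 with it (adjusted p = 0.000118). CDK1, the kinase of mitotic entry, was at 143, 128 and 136 CPM in siCtrl and at 140, 121 and 130 CPM in siMED12, and its blocked log2 fold change was -0.061 (95% interval -0.16 to 0.033, adjusted p = 0.339). CCNB2, a B-type cyclin of CDK1, was at 76.9, 79.0 and 79.5 CPM in siCtrl and at 76.2, 77.8 and 75.8 CPM in siMED12. In both genes the groups overlapped. CDC25C, the phosphatase that activates CDK1, was low (12.3 to 16.9 CPM in all libraries), and its interval of -0.39 to 0.080 left a wider range of changes.

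Of the genes of ubiquitin ligation in mitosis, CDC20 and G2E3 fell with the block. CDC20 was at 154, 151 and 136 CPM in siCtrl and at 132, 115 and 104 CPM in siMED12, without overlap. Its log2 fold change was -0.33 (adjusted p = 0.199) without and -0.34 (adjusted p = 5.84e-07) with the block. G2E3, a ubiquitin ligase named for its G2 expression, was at 41.8, 37.6 and 30.1 CPM in siCtrl and at 32.6, 22.9 and 25.9 CPM in siMED12. Here the groups overlapped, since siMED12 replicate 1 lay above siCtrl replicate 3, and within the replicate numbers the difference in log2 CPM ran from -0.22 to -0.71 (blocked log2 fold change -0.43, adjusted p = 7.34e-05). UBE2C, the ubiquitin-conjugating enzyme that works with the anaphase-promoting complex, was at 84.0 to 86.5 CPM in siCtrl and at 80.1 to 95.8 CPM in siMED12 (blocked 95% interval -0.10 to 0.12). CDCA3, which promotes the breakdown of the CDK1-inhibiting kinase WEE1, was at 61.2, 61.4 and 89.0 CPM in siCtrl and at 64.7, 66.9 and 85.4 CPM in siMED12, so that it differed by replicate number rather than by group. Of its 4879 exon bases, 549 overlap a gene on the other strand.

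Among the mitotic kinases, the checkpoint and the chromosomal passenger complex, AURKB and BIRC5 fell with the block. AURKB, the kinase of the passenger complex, was at 91.7, 80.5 and 82.8 CPM in siCtrl and at 70.9, 65.8 and 71.3 CPM in siMED12, and all siMED12 libraries lay below siCtrl. Its log2 fold change was -0.29 in both fits (adjusted p = 0.188 without and 5.29e-05 with the block). BIRC5, the survivin subunit of the same complex, was at 188, 182 and 189 CPM in siCtrl and at 164, 177 and 153 CPM in siMED12, a difference that was small in replicate 2. Its blocked log2 fold change was -0.18 (adjusted p = 0.00201), and the call was lost without replicate 3 (-0.12, adjusted p = 0.0817). CDCA8, borealin, the subunit that joins survivin and INCENP in the passenger complex, was not called (blocked log2 fold change -0.11, adjusted p = 0.155). AURKA, the spindle pole kinase, was at 64.1, 61.1 and 48.2 CPM in siCtrl and at 60.7, 58.5 and 45.4 CPM in siMED12, lower by about the same small amount at each number and not called (-0.074, adjusted p = 0.381). NEK2 and TTK, kinases of the centrosome and of the spindle checkpoint, had blocked log2 fold changes of -0.025 and 0.072. BUB1, a checkpoint kinase, was higher in every siMED12 library (91.7, 94.1 and 86.8 CPM) than in every siCtrl library (80.3, 83.8 and 85.5 CPM), with a blocked adjusted p of 0.0643.

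**Figure D3:**
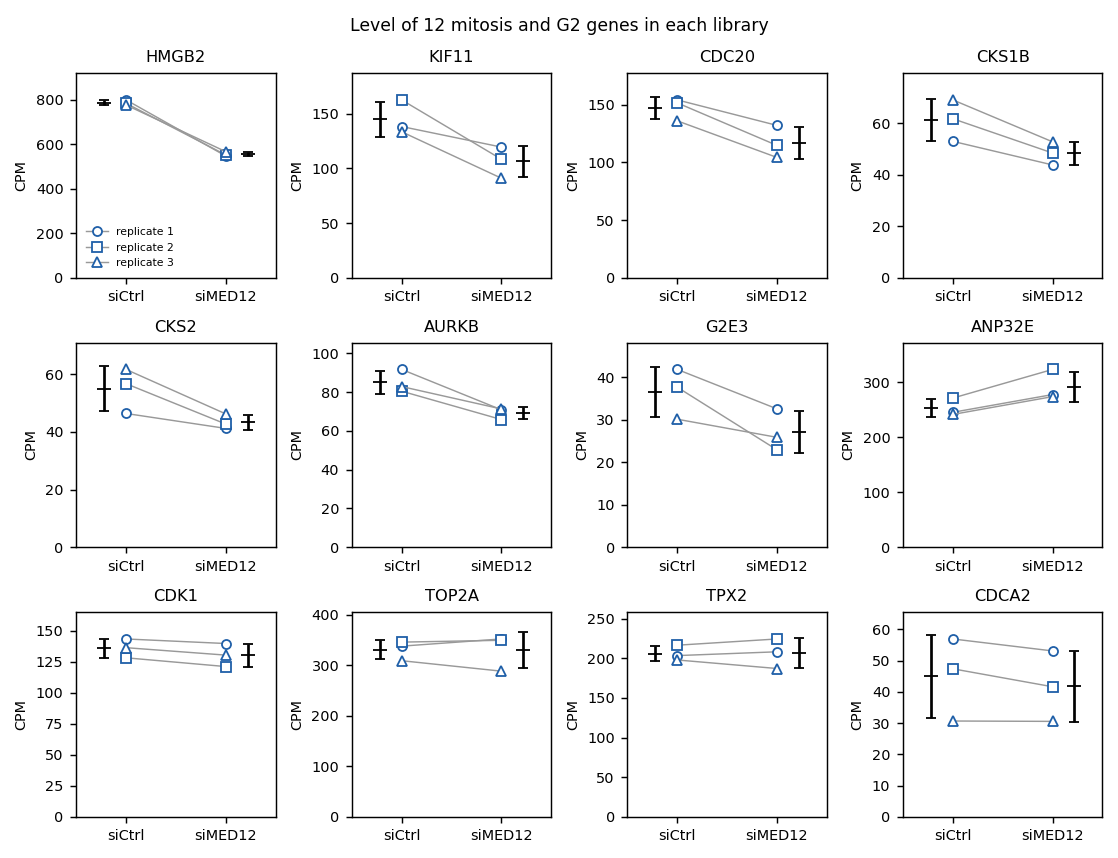
Level in CPM (y axes, from 0) of 12 genes in the 3 siCtrl and 3 siMED12 libraries (x axis), with lines joining libraries of the same replicate number and black bars for the group mean and SD (n = 3). HMGB2 drops from 777 to 800 CPM to 548 to 567 CPM with little spread, the lines of KIF11, CDC20, CKS1B, CKS2, AURKB and G2E3 all slope down and those of ANP32E up, and CDK1, TOP2A, TPX2 and CDCA2 differ more by replicate number than by group.

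None of the 6 kinetochore and centromere genes was called in either fit. CENPF, a large kinetochore protein and the most abundant of them, was at 295, 308 and 271 CPM in siCtrl and at 298, 297 and 273 CPM in siMED12 (blocked 95% interval -0.091 to 0.071). CENPA, the centromeric histone H3, was at 19.6, 18.7 and 16.7 CPM in siCtrl and at 18.2, 14.6 and 13.8 CPM in siMED12. It was lower at each replicate number, with a blocked log2 fold change of -0.24 and an adjusted p of 0.0708, and its interval, which is not adjusted over genes, was -0.45 to -0.031. CENPE, a kinetochore motor, was at 82.8, 97.3 and 87.0 CPM in siCtrl and at 82.9, 81.5 and 79.5 CPM in siMED12 (blocked adjusted p = 0.0703). HJURP, the chaperone that deposits CENPA, varied with the number, from 55.4, 48.3 and 40.0 CPM in siCtrl to 62.0, 45.5 and 41.1 CPM in siMED12. NUF2 and NDC80, partners in the complex that grips microtubules, had blocked log2 fold changes of -0.051 and 0.048, so that the pair lay on either side of 0 with intervals that overlapped.

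Of the 14 spindle and microtubule genes, 13 were tested, and KIF11, CKAP2 and TUBB4B fell with the block. KIF11, the kinesin that pushes spindle poles apart, was at 138, 163 and 134 CPM in siCtrl and at 120, 108 and 91.1 CPM in siMED12. The groups did not overlap, and the difference was smaller in replicate 1 (-13.6%) than in replicates 2 (-33.4%) and 3 (-31.8%). The log2 fold change was -0.45 in both fits, and the adjusted p was 0.150 without and 1.86e-08 with the block. CKAP2, a stabilizer of spindle microtubules, was at 161, 156 and 148 CPM in siCtrl and at 142, 146 and 130 CPM in siMED12, again without overlap (blocked log2 fold change -0.15, adjusted p = 0.00742, and 0.0532 without replicate 3). TUBB4B, a beta-tubulin, was at 807, 962 and 932 CPM in siCtrl and at 717, 908 and 875 CPM in siMED12. Its groups overlapped, the blocked log2 fold change was -0.11 (adjusted p = 0.0112), and the call was lost without replicate 1 (adjusted p = 0.0809) and with library size as the only scaling (adjusted p = 0.0753).

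The remaining spindle genes were close to the control level. TPX2, which brings AURKA to the spindle, was at 204, 217 and 198 CPM in siCtrl and at 208, 225 and 187 CPM in siMED12, with a blocked interval of -0.085 to 0.089. TACC3 and CKAP5, which bind each other on spindle fibers, had blocked log2 fold changes of -0.075 and -0.017. KIF2C, a kinesin that shortens microtubules, and PSRC1 and GAS2L3, which bind microtubules, lay between -0.047 and -0.028, whereas the spindle-associated CKAP2L, GTSE1, DLGAP5 and HMMR lay between 0.0037 and 0.055. For each of these 10 genes the log2 fold change was smaller than the log2 range among the siCtrl libraries. NUSAP1 could not be assessed. It had 3, 6 and 8 counts in siCtrl and 10, 8 and 13 counts in siMED12 and did not pass the expression filter. In Gencode, 86.8% of its 3608 exon bases (chr15:41320794-41381050, plus strand) overlap other genes on the same strand, 2938 of them with a readthrough gene (ENSG00000285920) that had 0 counts in every library. How the authors' counting treated reads that overlap 2 genes was not stated, so that the counts of NUSAP1 are no measure of its expression.

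Of the 4 cytokinesis genes, ANLN fell with the block. ANLN, anillin, which organizes the contractile ring, was at 291, 308 and 233 CPM in siCtrl and at 266, 282 and 203 CPM in siMED12. The groups overlapped because replicate 3 was low in both, and within each number siMED12 was lower (blocked log2 fold change -0.15, adjusted p = 0.00336, and an unblocked adjusted p of 0.719). ECT2, the exchange factor that activates RhoA at the midzone, and KIF23, a kinesin of the midzone, had blocked log2 fold changes of -0.074 and -0.041. KIF20B, a kinesin of late cytokinesis, was the lowest of the 52 genes. It was at 13.4, 5.76 and 6.46 CPM in siCtrl and at 12.3, 5.09 and 3.82 CPM in siMED12, and its blocked interval of -0.63 to 0.0038 was the widest.

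The chromosome and chromatin group held HMGB2, the gene called in both fits, and ANP32E, the gene that rose with the block. HMGB2 (ENSG00000164104) was at 800, 785 and 777 CPM in siCtrl and at 548, 553 and 567 CPM in siMED12, or 788 ± 11.7 and 556 ± 10.2 CPM (SD, n = 3). The siCtrl libraries spanned 0.042 on the log2 scale, and the difference was -0.55, -0.51 and -0.45 in replicates 1, 2 and 3. Its log2 fold change was -0.50 (SE 0.0775, adjusted p = 0.0424) without and -0.50 (SE 0.0366, adjusted p = 3.94e-14) with the block. Without the block the call was lost whichever library was left out, with adjusted p of 0.0687 to 0.208 and log2 fold changes of -0.52 to -0.50. In 4 of these 6 fits 0 of all genes tested were called in either direction, so that those 4 say little about HMGB2. Genes were called without siCtrl replicate 3 (37 lower and 5 higher of 18336) and without siMED12 replicate 3 (29 lower and 8 higher of 18281). HMGB2 was not among them (adjusted p = 0.0687 and 0.0962). ANP32E, a chaperone that removes the histone H2A.Z, was at 245, 271 and 241 CPM in siCtrl and at 277, 323 and 274 CPM in siMED12, without overlap (log2 fold change 0.21, adjusted p = 0.366, and 0.20, adjusted p = 9.9e-05 with the block).

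The proliferation markers MKI67 and TOP2A did not pass in either fit, and neither did CBX5, the most abundant gene of this group. MKI67, which encodes the Ki-67 antigen, was at 546, 537 and 459 CPM in siCtrl and at 552, 512 and 443 CPM in siMED12, and its blocked interval was -0.11 to 0.041. TOP2A, the topoisomerase of mitotic chromosomes, was at 338, 346 and 309 CPM in siCtrl and at 352, 350 and 288 CPM in siMED12 (-0.089 to 0.074). CBX5, heterochromatin protein 1 alpha, was at 828, 845 and 714 CPM in siCtrl and at 834, 871 and 694 CPM in siMED12 (-0.068 to 0.077). In all 3 genes replicate 3 was the lowest library of each group, and the step from the other replicates to it was larger than any step between the groups. The condensin subunits NCAPD2 and SMC4 had blocked log2 fold changes of -0.088 (adjusted p = 0.0944) and -0.060 (adjusted p = 0.324), and 1796 of the 8164 exon bases of SMC4 overlap a gene on the other strand. CDCA2, which targets protein phosphatase 1 to chromosomes at mitotic exit, was at 56.9, 47.4 and 30.7 CPM in siCtrl and at 53.1, 41.6 and 30.5 CPM in siMED12. Its adjusted p was 0.901 without the block and 0.273 with it (blocked log2 fold change -0.10).

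RANGAP1, which sits at nuclear pores and on mitotic kinetochores, was the gene called among the 3 of the nuclear envelope. It was at 236, 248 and 229 CPM in siCtrl and at 204, 220 and 205 CPM in siMED12, without overlap (blocked log2 fold change -0.18, adjusted p = 0.000617). TMPO, which encodes the lamina-associated LAP2 proteins, was at 637, 695 and 612 CPM in siCtrl and at 638, 699 and 608 CPM in siMED12, the smallest change of all 52 genes. LBR, the lamin B receptor, had a blocked log2 fold change of -0.016. Of the last 2 genes, JPT1, a homolog of the microtubule-associated protein Jupiter, was at 143, 156 and 141 CPM in siCtrl and at 131, 150 and 122 CPM in siMED12. Its blocked call (-0.13, adjusted p = 0.0245) was lost without replicate 1 (adjusted p = 0.0633), without replicate 3 (0.223), with library size as the only scaling (0.128) and with DESeq2 in the blocked design (0.0766). PIMREG, named as a mitotic regulator, was not called (-0.091, adjusted p = 0.374).

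More of the 52 genes differed between replicate numbers than between the treatments, and the same held over all genes tested. In a test of the number terms with the treatment in the model, 32 of the 52 differed between replicate numbers (61.5%), where 47.1% of all genes tested did. For the treatment in the same model, 13 of the 52 were lower and 1 higher, beside 16.2% and 17.1% of all genes. The first test takes the number terms together and the second takes the treatment term alone. Replicate 3 was the lowest library of both groups for 26 of the 52 (29.4% of all genes), for 23 of which the number terms passed the test (20.6% of all genes). Replicate 1 was the highest in both groups for 14 (18.1% of all genes), and replicate 3 was the highest in both for 5 (27.1% of all genes): CDCA3, CKS1B, CKS2, PSRC1 and TACC3. The smallest adjusted p belonged to CDCA2 (6.4e-10), ANLN (3.87e-09), KIF20B (4.49e-08) and CDCA3 (2.21e-07), and that of HMGB2 was 0.976. By role, all 4 cytokinesis genes and 7 of the 8 chromosome and chromatin genes differed between numbers, against 2 of the 6 kinetochore genes. The count was 11 without replicate 3 (16.6% of all genes), 21 without replicate 1 (35.1%) and 27 without replicate 2 (41.4%), so that over all genes it fell as well. The labels do not say what a replicate number stands for, and the share of mitochondrial counts moved with it. Its part in the levels of these genes was not tested.

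**Figure D4:**
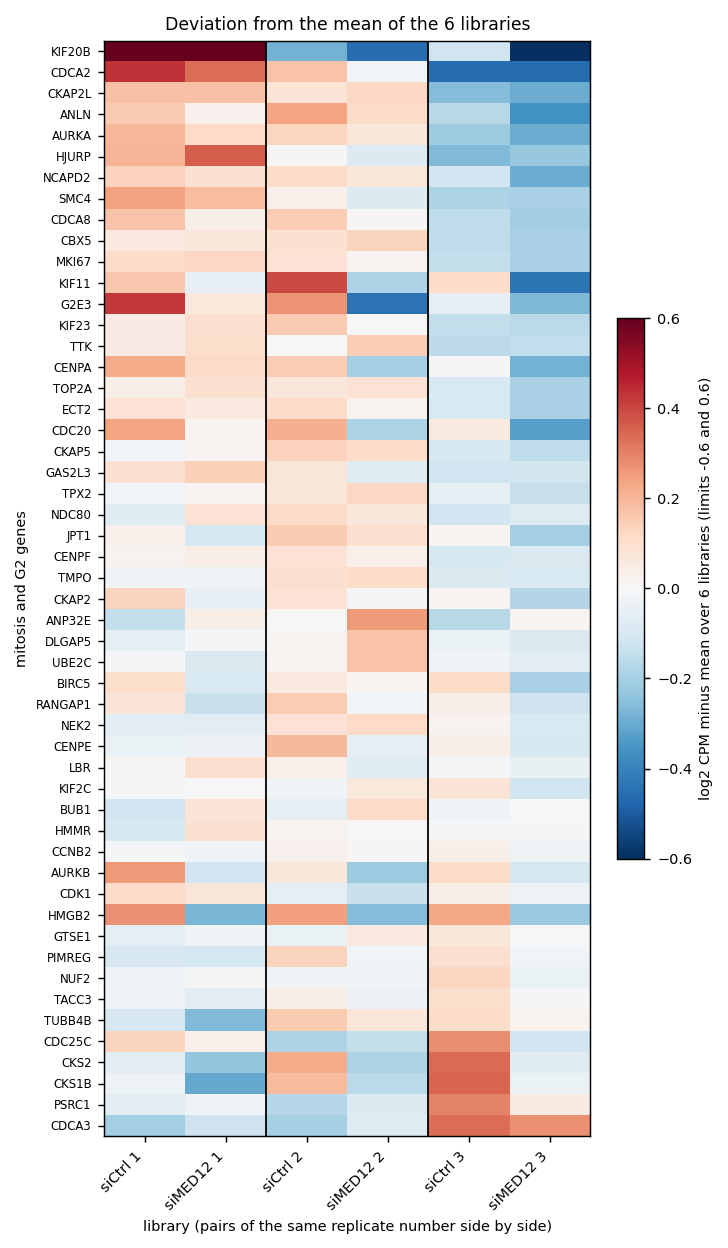
Deviation of log2 CPM from the mean of the 6 libraries (color, limited to -0.6 and 0.6) for the 52 tested genes (rows) in the 6 libraries (columns), with libraries of the same replicate number side by side. Many rows, such as CDCA2 and ANLN, have the same color in both libraries of a pair and turn from red in replicate 1 to blue in replicate 3, whereas HMGB2 is red in every siCtrl and blue in every siMED12 library.

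Levels of the 52 genes spanned 2 orders of magnitude. The mean over the 6 libraries ran from 7.80 CPM for KIF20B to 867 CPM for TUBB4B, with a median of 90.3 CPM. Per kilobase of exon, the siCtrl level was highest for TUBB4B (442 CPM per kilobase) and HMGB2 (328), followed by CKS2 (89.2), TMPO (76.3) and CDC20 (73.1), and was lowest for KIF20B (1.24) and G2E3 (3.92). The genes that fell with the block thus included both the highest and the next to lowest level per kilobase.

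Other mitotic genes were taken from a list written from general knowledge, with earlier results of these data known. Of 86 tested, 0 were lower and 0 higher without the block (7 and 1 at an unadjusted p below 0.05, beside 7.93% and 7.65% of all genes, and 5 and 1 with DESeq2, beside 2.75% and 1.85%). With the block 27 were lower and 8 higher, or 31.4% and 9.30%, beside 16.2% and 17.1% of all genes. The median log2 fold change was -0.058. The smallest blocked adjusted p belonged to NUMA1, which gathers microtubules at spindle poles. NUMA1 was higher in siMED12, at 723, 793 and 812 CPM against 582, 594 and 617 CPM in siCtrl (log2 fold change 0.38, adjusted p = 0.0949, and 1.12e-10 with the block), and 4154 of its exon bases overlap a gene on the other strand. UBE2S, which extends ubiquitin chains for the anaphase-promoting complex, was at 153, 186 and 179 CPM in siCtrl and at 117, 145 and 116 CPM in siMED12 (blocked log2 fold change -0.46, adjusted p = 8.09e-10). PKMYT1, a kinase that restrains CDK1, fell with the block as well (-0.37, adjusted p = 1.42e-08). Among the cyclins, CCNB1 was at 161, 163 and 180 CPM in siCtrl and at 148, 146 and 148 CPM in siMED12 (-0.19, adjusted p = 0.00123), and CCNA2 at 149, 155 and 131 CPM and at 134, 132 and 107 CPM (-0.22, adjusted p = 0.000216). PLK1, the Polo-like kinase, did not pass (-0.11, adjusted p = 0.0864).

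Of 18 genes that regulate mitotic transcription, 0 were called without the block in either direction, beside 0.413% lower and 0.151% higher of all genes. At an unadjusted p below 0.05, 1 was lower and 1 higher, beside 7.93% and 7.65% of all genes. DESeq2 without the block called 1 lower and 0 higher, beside 2.75% and 1.85%. With the block 8 were lower and 2 higher, or 44.4% and 11.1%, beside 16.2% and 17.1% of all genes. MYBL2, the activator that joins MuvB, was at 119, 123 and 105 CPM in siCtrl and at 94.1, 91.0 and 81.8 CPM in siMED12, without overlap (blocked log2 fold change -0.38, adjusted p = 1.07e-07). FOXM1 was at 276, 309 and 278 CPM in siCtrl and at 260, 286 and 236 CPM in siMED12, groups that overlapped (-0.14, adjusted p = 0.0063). E2F4, the E2F of the DREAM complex, fell with the block (-0.28, adjusted p = 7.78e-05), and RBL2, its p130 pocket protein, rose (0.26, adjusted p = 1.36e-05). Overlap on the other strand covers 1330 exon bases of RBL2 and 782 of FOXM1.

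Close relatives of the 52 genes were examined because reads can match near-identical copies. Of 15 tested, 6 were lower and 3 higher with the block, or 40.0% and 20.0%, beside 16.2% and 17.1% of all genes. Without the block 0 were lower and 0 higher, beside 0.413% and 0.151% of all genes. At an unadjusted p below 0.05, 1 was lower and 1 higher, beside 7.93% and 7.65%. HMGB1, the relative of HMGB2, was at 333, 404 and 430 CPM in siCtrl and at 330, 375 and 400 CPM in siMED12, with a blocked log2 fold change of -0.076 (adjusted p = 0.134), and HMGB3 was higher with the block (0.25, adjusted p = 0.000559). CBX3, a relative of CBX5, was lower with the block (-0.29, adjusted p = 4.7e-07), as was CDC25A, a relative of CDC25C (-0.39, adjusted p = 0.000203). Reads that match several places, and strand, were treated in a way that the sources used here do not state.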

How the data were processed

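Poly(A) RNA of 6 libraries of 22Rv1 cells was sequenced by a service provider with a strand-specific preparation. The authors aligned and counted reads with Rsubread against Gencode annotation of GRCh38 (the release of Rsubread, the use of strand and the handling of reads that match several genes are not given in the sources used here). The deposited counts are raw reads per gene for 62703 genes. The deposited log2 CPM values, for 17901 genes, were recomputed from the counts (edgeR's filter on expression, TMM, prior count 2) with differences of at most 4.96e-09. Library totals were 16136699 to 17012788.

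Counts went through edgeR 4.0.16 (R 4.3.3; quasi-likelihood test, TMM, treatment as the only term), two-sided, with Benjamini-Hochberg adjustment over all 17901 genes and a threshold of 0.05. The labels number the libraries 1 to 3 in both groups. Across genes, deviations from the group means correlated at 0.532, 0.373 and 0.643 within a number and at -0.460 to -0.0233 across numbers. Such deviations cancel out over a group, so that positive values within a number force some negative ones across numbers. From the values within a number, the numbers were taken to pair the libraries. The fit with the number as a block is given beside the other. The study's methods name edgeR without a blocking term, but 1 of its heatmaps of these cells is described as batch-corrected, so that the unblocked fit may not be the authors'. The study calls its replicates biological, and the labels do not say how the libraries of a number are related. Unblocked p-values therefore measure the spread between these libraries. Blocked p-values measure only the spread that is left once the replicate number is in the model. No 2 replicates agreed within counting noise (chi-square per degree of freedom 10.3 to 40.7). SEs and 95% intervals follow from the fold change and its F statistic. CPM values are scaled to TMM-adjusted library sizes.

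The 53 genes, the other lists and the tests were chosen with earlier results of these data known. Named were the called genes, the most abundant gene of each role, the 5 genes of widest siCtrl range, the 3 of smallest change, in each other list the 3 of smallest blocked adjusted p and any called without the block, and MED12, FOXM1, MYBL2, CCNB1, CCNA2, PLK1 and HMGB1 (cell type markers are given as lists). Other members of the 53 were added after their values were seen, to account for all. Gene models and overlaps came from Gencode release 44. Alternatives were other scalings and filters, DESeq2 (version 1.42.0), limma-trend (version 3.58.1) and leaving out libraries. The fits were also run on data simulated from the blocked fit. Such data cannot show that the block suits the real libraries.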

Additional observations from a re-analysis of the deposited data

How the results depend on the processing

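Without the replicate block, 1 of the 52 genes was lower and 0 higher under each other scaling, filter and test, but leaving out any 1 library gave 0 lower (all 6 fits, 0 to 0), 4 of which called 0 of all genes tested in either direction. With the replicate block there were 13 lower and 1 higher, with the block and DESeq2 size factors 14 and 1, with the block and library size only 11 and 2, with the block and the DESeq2 test (chosen after seeing the data) 12 and 1, with the block and limma-trend (likewise) 13 and 1, and with the block but without 1 replicate number 10 to 14 lower and 1 to 2 higher. The shares of all genes lower and higher moved as well: 16.2% and 17.1% with the block, 17.1% and 16.5% with DESeq2 size factors, 13.5% and 21.3% with library size only, 11.5% and 10.0% with the DESeq2 test, 16.2% and 17.2% with limma-trend, and 14.2% to 14.5% and 11.4% to 13.3% without 1 number. JPT1 was lost in 4 of these fits, TUBB4B in 2 and BIRC5 and CKAP2 in 1 each, and BUB1, CENPE and NCAPD2 were gained in some. The median log2 fold change was -0.014 with the block and library size only, -0.017 with library size only, -0.099 to -0.043 with the block without 1 replicate number, and -0.12 to 0.012 without 1 library, the highest value being that without siMED12 replicate 3.

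Against the same shares of all genes, lower and higher calls among the other mitotic genes were 27 and 8 with the block, 20 and 12 with the block and library size only, 28 and 7 with the block and DESeq2 size factors, 19 and 2 with the block and the DESeq2 test, 27 and 7 with the block and limma-trend, 19 to 27 (26 without replicate 1) and 2 to 5 (3 without replicate 2) with the block without 1 replicate number, and 5 and 1 with the DESeq2 test alone (2.75% and 1.85% of all genes). For the regulators they were 8 and 2, 7 and 3, 8 and 2, 5 and 1, 8 and 2, 7 and 1 to 2 in the same order, and 1 and 0 with the DESeq2 test alone. Genes that differed between replicate numbers counted 11 to 27 without 1 number (16.6% to 41.4% of all genes). The log2 fold change of MED12 was -1.90 to -1.45 without 1 library, with an adjusted p above 0.05 without siCtrl replicate 1 (0.0818), siCtrl replicate 2 (0.186), siMED12 replicate 1 (0.108) or siMED12 replicate 2 (0.130). Each of the fits with an adjusted p above 0.05 called 0 of all genes tested in either direction. The causes of these differences were not tested.

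Of 42 other named genes, 10 changed sign in some fit, and none of the 10 was called in either fit. With library size only, CENPF was at 0.032 (blocked 0.031) and TOP2A at 0.039 (blocked 0.034). In the order DESeq2 size factors, the same blocked, a mean of 1 CPM or more, the DESeq2 test and the same blocked, CBX5 was at -0.00034, -0.0040, -0.010, -0.00033 and -0.0040, TPX2 at -0.0031, -0.0060, -0.013, -0.0031 and -0.0064, and TMPO at -0.0073, -0.0085, -0.017, -0.0073 and -0.0085. TMPO was also at -0.00011 with the block, -9.9e-05 without a filter beyond 1 count and -0.00014 with limma-trend, blocked or not, and COL1A1 at -0.0020 with a mean of 1 CPM or more. In the blocked fits without replicate 1, values were -0.017 for CBX5, -0.019 for TMPO, -0.032 for TPX2, -0.043 for HJURP and -0.027 for COL1A1, without replicate 2 they were -0.042 for CBX5, -0.031 for TMPO, -0.049 for TPX2 and -0.020 for CDCA3, and without replicate 3 TOP2A was at 0.038. Leaving out 1 library without the block gave -0.062 to 0.032 for CENPF, -0.080 to 0.10 for CBX5, -0.079 to 0.054 for TMPO, -0.16 to 0.17 for HJURP, -0.098 to 0.24 for CDCA3, -0.33 to 0.079 for CDCA2, -0.95 to 0.19 for KIF20B, -0.070 to 0.086 for TOP2A, -0.081 to 0.072 for TPX2 and -0.24 to 0.32 for COL1A1.

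KIF20B, CDC25C and CENPA, which are among the genes of lowest level, had the widest intervals. The median width of the 95% interval over the 52 genes was 0.49 without and 0.22 with the block on the log2 scale.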
